A study of Mus musculus with 7 samples.

Results

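Interferon-stimulated genes are switched on when interferon, a secreted antiviral cytokine, binds its receptor at the cell surface. The set described here holds 38 mouse genes known to be induced by type I or type II interferon. They were listed by symbol and matched to the gene table through a GRCm38 annotation, and measured levels are not part of the choice rule. The list was, however, drawn up with earlier results of these data known, so its counts are a description and the list was not tested. All 38 were among the 52550 genes counted, and all 38 were among the 20128 genes that passed the expression filter and were tested. The filter asks for about 10 counts at the median depth in at least 3 libraries, which 37 members met in WT alone and *Oas2* only through its SCA7 libraries, so the counts and medians over the 38 include 1 gene that could be tested only because it was higher in SCA7.

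Total RNA-seq was carried out on retina of 7 C57BL/6J mice at 12.5 weeks of age, 4 WT mice and 3 homozygous SCA7 knock-in mice (labelled SCA7_KI_homo, here SCA7), with the 2 retinas of each mouse in 1 library. The knock-in carries an expanded CAG repeat in exon 1 of the *Atxn7* locus and expresses mutant ATXN7 under the gene's own promoter, so the homozygous animals make no WT form of the protein. Counts per gene do not show the length of the repeat, and the labels were therefore not checked against it. Retinas were pooled within a mouse and whole tissue was used, so no value belongs to a single cell type.

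Type I interferons signal through the receptor chains IFNAR1 and IFNAR2 and the kinases JAK1 and TYK2 to STAT2, which joins IRF9 in the ISGF3 complex. ISGF3 binds the interferon-stimulated response element (ISRE) in promoters, whereas the response to interferon gamma runs through the gamma-activated site (GAS). Many of the induced genes encode sensors of viral RNA, enzymes that block viral replication and the components of the pathway itself, and they are known to be induced in the retina by infection and inflammation.

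To show what the members' promoters share, the RefSeq windows from 250 bases before to 50 bases after the gene start (GRCm38.p6) were searched on both strands for the ISRE letters GAAANNGAAA and for the GAS letters TTCNNNGAA. Matches to the 2 motifs may share bases, and matches to the ISRE letters may overlap each other. A window was given for 29 of the 38 members, with 35 windows in all. The ISRE letters were found in 15 of these 29 members (51.7%) and in 3.99% of the 27025 genes with a window. The GAS letters were found in 8 of 29 members (27.6%) and in 9.55% of all genes with a window. No window was given for *Ifi27*, *Usp18*, *Oas2*, *Rtp4*, *Dhx58*, *Parp9*, *Parp14*, *Zbp1* and *Mx2*. A match is a description of the letters and was not tested as a site of binding.

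The 30 bases around each ISRE match are given for the 12 upregulated members with the largest fold change among those with a match, since these are the letters counted above. They read 5′ to 3′ on the gene's strand, and capitals mark the matched bases. GAAA on both sides of 2 free bases is a match on the gene's strand, and TTTC on both sides is a match on the other strand.
*Gbp2*, chr3:142620594-142620623, + strand: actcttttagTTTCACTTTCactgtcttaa
*Trim30a*, chr7:104446104-104446133, - strand: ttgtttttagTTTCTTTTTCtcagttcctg
*Trim30a*, chr7:104465210-104465239, - strand: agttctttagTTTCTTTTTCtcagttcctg
*Oas1a*, chr5:120907523-120907552, - strand: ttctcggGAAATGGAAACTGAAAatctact
*Ifitm3*, chr7:141010706-141010735, - strand: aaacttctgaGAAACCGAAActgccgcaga
*Ifitm3*, chr7:141010723-141010752, - strand: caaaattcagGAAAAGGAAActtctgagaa
*Ifit1*, chr19:34640775-34640804, + strand: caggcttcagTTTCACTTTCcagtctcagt
*Ifit1*, chr19:34640794-34640823, + strand: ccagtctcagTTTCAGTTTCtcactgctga
*Ddx58*, chr4:40239804-40239833, - strand: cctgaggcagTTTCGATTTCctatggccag
*Rsad2*, chr12:26456553-26456582, - strand: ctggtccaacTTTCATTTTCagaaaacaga
*Isg15*, chr4:156200871-156200900, - strand: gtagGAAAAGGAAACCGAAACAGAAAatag
*Eif2ak2*, chr17:78882535-78882564, - strand: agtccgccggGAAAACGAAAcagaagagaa
*Bst2*, chr8:71537580-71537609, - strand: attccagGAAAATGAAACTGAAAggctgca
*Ifih1*, chr2:62646206-62646235, - strand: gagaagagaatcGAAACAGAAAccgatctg
*Ifit3*, chr19:34583363-34583392, + strand: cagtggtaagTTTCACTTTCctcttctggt
*Ifit3*, chr19:34583397-34583426, + strand: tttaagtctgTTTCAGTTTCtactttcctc

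In *Isg15*, 3 overlapping matches ran over 22 bases, and they began 78 bases before the gene start. In *Oas1a* and *Bst2*, overlapping matches ran over 16 bases, beginning 20 and 130 bases before the start. *Ifit1* and *Ifit3*, which lie on the same chromosome, each had a pair of separate matches, at 104 and 85 bases before the start in *Ifit1* and at 156 and 122 bases in *Ifit3*. In *Ddx58*, *Ifitm3*, *Eif2ak2* and *Ifih1* the matches lay just past the start, inside the transcript. *Trim30a* had such a match in one of its windows and a match 36 bases before the start in another. The other members with a match were *Gbp7*, which was upregulated, and *Gbp3* and *Stat2*, which were not. ISRE letters were thus present in 13 of 24 upregulated members with a window (54.2%) and in 2 of 5 members that were not called (40.0%). The GAS letters were found in *Bst2*, *Eif2ak2*, *Gbp7*, *Ifi35*, *Ifit2*, *Ifitm3*, *Irf1* and *Oas1a*.

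Library totals ran from 56497675 to 96635832 counts on genes with a median of 67140118, so 1 count was worth 0.00972 to 0.0188 CPM. CPM, the count of a gene relative to its library, was computed with TMM-scaled library sizes, and values in the text are in the order of the replicate numbers, 4 for WT and 3 for SCA7. *Xist* was between 0.0612 and 0.3001 CPM in all 7 libraries, at most 19 counts. Together with the Y-linked *Ddx3y*, *Eif2s3y*, *Kdm5d* and *Uty* it summed to 346 to 390 CPM in WT and 275 to 303 CPM in SCA7. All 7 libraries thus had the marker pattern of male mice, and *Xist* as a covariate does not separate sexes here. Fold changes (FC, SCA7/WT) come from edgeR's quasi-likelihood fit over all 20128 genes, and adjusted p from its Benjamini-Hochberg correction over the same genes. Their standard errors (the value after ±) were derived from the fit, as the absolute log2 FC divided by the square root of the F statistic. Calls needed an adjusted p under 0.05 together with an FC limit, above 1.3 for an upregulated gene and below 0.7 for a downregulated gene.

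To ask whether interferon-stimulated genes differed between SCA7 and WT retina, the 38 members were read from this fit. All 38 had a higher fitted level in SCA7 retina, and 31 of them (81.6%) were upregulated, where 7.47% of all genes tested were. The list was made with earlier results known, so this contrast was not tested. The median log2 FC of the members was 0.98, a fold of 1.97, and the median of all genes tested was -0.02. Of the 31 upregulated members, 18 were above an FC of 2, which 1.8% of all genes tested reached at the same adjusted p. None was downregulated in edgeR, DESeq2 or limma-voom, against 7.91% of all genes tested in edgeR, and since no member had a log2 FC below 0 in any of the 15 fits, none was lower at an unadjusted p under 0.05 either. In 36 of 38 members every SCA7 library was above every WT library, a separation shown in that direction by 19.3% of all genes tested. In bulk retina, more or fewer cells of a type and more or less RNA per cell cannot be told apart.

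**Figure D1:**
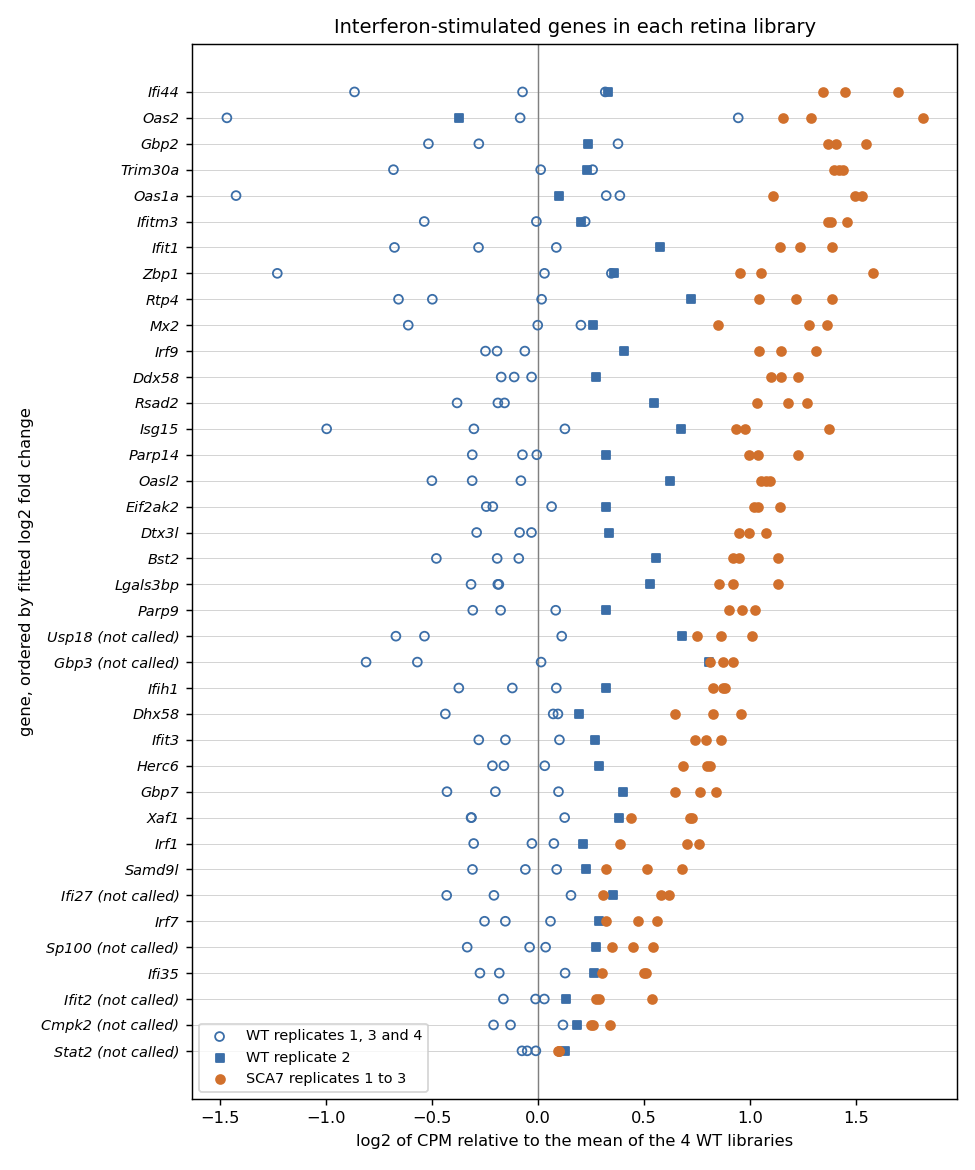
Level of the 38 interferon-stimulated genes in each retina library, as log2 of CPM relative to the mean of the 4 WT libraries (x axis), with genes on the y axis ordered by fitted log2 fold change; each point is 1 library. The 3 SCA7 libraries lie to the right of all 4 WT libraries in 36 of 38 genes, and WT replicate 2 (squares) is the WT library nearest to SCA7 in most of them.

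Among the transcription factors, 3 of 5 were upregulated, with a median log2 FC of 0.45. *Irf9* (ENSMUSG00000002325, chr14:55603571-55610030), the DNA-binding subunit of ISGF3, was at 13.1, 19.9, 14.4 and 12.6 CPM in WT and at 37.2, 33.2 and 30.9 CPM in SCA7. Its SCA7 libraries were all above the WT range, and it rose 2.24-fold (log2 FC 1.17 ± 0.15, adjusted p = 4.0e-04). *Irf1* (ENSMUSG00000018899, chr11:53770014-53778374), a factor induced by interferon gamma, was at 7.29, 8.01, 6.79 and 5.61 CPM in WT and 11.7, 11.2 and 9.05 CPM in SCA7. The groups did not overlap and the gene rose 1.54-fold (log2 FC 0.62 ± 0.13, adjusted p = 0.0031). *Irf7* (ENSMUSG00000025498, chr7:141262706-141266481), which amplifies production of type I interferon, gave 9.82, 13.3, 11.4 and 9.18 CPM in WT and 16.1, 15.2 and 13.7 CPM in SCA7. WT replicate 2 was just below the lowest SCA7 library, and the increase was 1.37-fold (log2 FC 0.45 ± 0.12, adjusted p = 0.014). Its call was lost without SCA7 replicate 1 (adjusted p = 0.0701), SCA7 replicate 2 (0.0508) or WT replicate 1 (0.05005), and without WT replicate 4 its FC was under the limit (log2 FC 0.38, adjusted p = 0.0192). *Stat2*, another subunit of ISGF3, was between 25.4 to 29.2 CPM in WT and 28.5 to 28.7 CPM in SCA7, so the groups overlapped (log2 FC 0.10 ± 0.06, adjusted p = 0.29). *Sp100*, a component of PML nuclear bodies, was at 0.780 to 1.19 CPM in WT and 1.25 to 1.43 CPM in SCA7 and was not called (log2 FC 0.44 ± 0.17, adjusted p = 0.068), except without WT replicate 2 (log2 FC 0.55, adjusted p = 0.0415). Within ISGF3, *Irf9* thus had an FC of 2.24 and *Stat2* of 1.07, and the difference between these genes was not tested.

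Of the sensors of RNA and DNA 8 of 8 were upregulated, with a median log2 FC of 1.11, and 7 of these, all but *Oas2*, met the expression filter in WT alone. *Ddx58* (ENSMUSG00000040296, chr4:40203773-40239828) encodes RIG-I, a cytoplasmic sensor of viral RNA, and was at 5.79, 7.90, 6.40 and 6.04 CPM in WT and 15.2, 14.4 and 13.98 CPM in SCA7. All SCA7 libraries were well above WT, with the smallest adjusted p of any member (log2 FC 1.15 ± 0.10, adjusted p = 8.0e-06). *Ifih1* (ENSMUSG00000026896, chr2:62595798-62646255) encodes MDA5, which senses long double-stranded RNA, and was at 5.28, 8.53, 7.26 and 6.29 CPM in WT and 12.5, 12.6 and 12.1 CPM in SCA7. It rose 1.81-fold without overlap of the groups (log2 FC 0.86 ± 0.13, adjusted p = 5.2e-04). *Dhx58* (ENSMUSG00000017830, chr11:100694884-100704271) encodes LGP2, a regulator of both sensors, with 1.66, 1.78, 1.63 and 1.15 CPM in WT and 2.75, 2.43 and 3.01 CPM in SCA7. WT replicate 4 was the lowest library and the groups were apart (log2 FC 0.81 ± 0.16, adjusted p = 0.0026). *Eif2ak2* (ENSMUSG00000024079, chr17:78852564-78882573), the kinase PKR that halts translation upon double-stranded RNA, was at 5.09, 7.52, 6.30 and 5.200 CPM in WT and 13.3, 12.2 and 12.4 CPM in SCA7. The SCA7 libraries lay close together and far above WT (log2 FC 1.06 ± 0.12, adjusted p = 6.7e-05).

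The oligoadenylate synthetases make the messenger that activates RNase L. *Oas2* (ENSMUSG00000032690, chr5:120730333-120749853) was the member with the lowest level, at 0.120, 0.0979, 0.244 and 0.0459 CPM in WT, from 3 to 13 counts, and 0.309, 0.445 and 0.282 CPM in SCA7, from 19 to 38 counts. Its groups were close but apart, with an FC of 2.80 (log2 FC 1.49 ± 0.41, adjusted p = 0.018). It met the expression filter in 1 WT library and all 3 SCA7 libraries, so it was tested only through the group where it was high, and its call and fold support nothing about the members. The call was lost without SCA7 replicate 2 (log2 FC 1.25, adjusted p = 0.0897) or WT replicate 2 (1.38, adjusted p = 0.054). *Oas1a* (ENSMUSG00000052776, chr5:120896256-120907521) was at 0.359, 0.308, 0.375 and 0.107 CPM in WT and 0.618, 0.809 and 0.826 CPM in SCA7. WT replicate 4 was far below the other WT libraries, and the groups did not overlap (log2 FC 1.41 ± 0.31, adjusted p = 0.0050). *Oasl2* (ENSMUSG00000029561, chr5:114896936-114912234), a relative of these enzymes, was at 7.67, 16.7, 10.3 and 8.75 CPM in WT and 23.1, 22.5 and 22.8 CPM in SCA7. The SCA7 libraries were nearly equal, while WT replicate 2 stood between the other WT libraries and SCA7 (log2 FC 1.07 ± 0.26, adjusted p = 0.024). Its call held in 7 of the 15 fits. It was lost without WT replicate 3 or 4 or any of the SCA7 replicates, with adjusted p from 0.0654 to 0.0873 and log2 FC from 0.97 to 1.08, and also with *Xist* as a covariate (adjusted p = 0.0712), without the filter on low counts (0.0678) and with the replicate number as a block (0.162). *Zbp1* (ENSMUSG00000027514, chr2:173206612-173218923), a sensor of Z-form nucleic acids, was at 0.256, 0.322, 0.319 and 0.107 CPM in WT and 0.520, 0.750 and 0.486 CPM in SCA7. It rose 2.34-fold from 7 to 23 counts in WT and 32 to 64 in SCA7 (log2 FC 1.22 ± 0.32, adjusted p = 0.013), and the call was lost without SCA7 replicate 2 (log2 FC 1.00, adjusted p = 0.0749).

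In the group of ISG15 and ADP-ribosylation, 5 of 6 members were upregulated, with a median log2 FC of 0.98. *Isg15* (ENSMUSG00000035692, chr4:156199424-156200818), a ubiquitin-like modifier, was at 1.43, 2.82, 1.93 and 0.887 CPM in WT and 3.48, 4.57 and 3.38 CPM in SCA7. WT ranged widely, from its lowest value in replicate 4 to its highest in replicate 2, and stayed below SCA7 (log2 FC 1.10 ± 0.32, adjusted p = 0.036). The call held in 8 of the 15 fits and was lost without WT replicate 1 or 3 or any of the SCA7 replicates, with adjusted p from 0.0613 to 0.114 and log2 FC from 0.95 to 1.18, and also with *Xist* as a covariate (adjusted p = 0.1201) and without the filter (0.1404). *Herc6* (ENSMUSG00000029798, chr6:57581000-57664632), the main ligase for ISG15 in mice, was at 2.94, 4.01, 3.36 and 2.83 CPM in WT and 5.75, 5.70 and 5.28 CPM in SCA7, without overlap (log2 FC 0.76 ± 0.13, adjusted p = 8.9e-04). *Usp18*, the protease that removes ISG15 and restrains the type I receptor, was at 1.79 to 4.56 CPM in WT and 4.79 to 5.72 CPM in SCA7. Its groups did not overlap, yet it missed the threshold (log2 FC 0.87 ± 0.30, adjusted p = 0.061), and it passed with limma-voom on all libraries (log2 FC 0.95, adjusted p = 0.025) and in edgeR without WT replicate 2 (1.20, adjusted p = 0.00145).

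The ADP-ribosyltransferases of this group and their partner were all upregulated. *Parp14* (ENSMUSG00000034422, chr16:35832874-35871544), a mono-ADP-ribosyltransferase, was at 6.17, 9.54, 7.61 and 7.27 CPM in WT and 17.8, 15.2 and 15.7 CPM in SCA7, a rise of 2.12-fold (log2 FC 1.08 ± 0.12, adjusted p = 6.9e-05). *Parp9* (ENSMUSG00000022906, chr16:35938470-35972605), which works in a complex with the ubiquitin ligase DTX3L, was at 5.89, 9.10, 7.73 and 6.45 CPM in WT and 14.8, 14.2 and 13.6 CPM in SCA7 (log2 FC 0.96 ± 0.13, adjusted p = 1.9e-04). *Dtx3l* (ENSMUSG00000049502, chr16:35926511-35939151) was at 4.27, 6.59, 4.91 and 5.11 CPM in WT and 10.99, 10.1 and 10.4 CPM in SCA7 (log2 FC 1.00 ± 0.13, adjusted p = 1.1e-04). In these 3 genes the SCA7 libraries were all above WT and the standard errors were between 0.12 and 0.13, among the smallest of the set, whose median standard error was 0.16.

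Of the RNA-binding and membrane effectors, 7 of 9 were upregulated, with a median log2 FC of 0.99. *Ifitm3* (ENSMUSG00000025492, chr7:141009586-141010770), which blocks entry of enveloped viruses, was at 7.19, 7.09, 6.13 and 4.25 CPM in WT and 15.9, 16.9 and 16.0 CPM in SCA7. It was among the members with the largest fold, 2.64 (log2 FC 1.40 ± 0.15, adjusted p = 5.1e-05), and WT replicate 2 was not its highest WT library. *Ifit1* (ENSMUSG00000034459, chr19:34640871-34650009), which binds viral RNA that lacks a host cap, was at 3.38, 8.05, 5.74 and 4.45 CPM in WT and 12.7, 11.9 and 14.1 CPM in SCA7. WT replicate 2 was the highest WT library and stayed below SCA7 (log2 FC 1.25 ± 0.26, adjusted p = 0.011), and the call was lost without WT replicate 3 (log2 FC 1.28, adjusted p = 0.055), with *Xist* as a covariate (1.23, adjusted p = 0.0544) and with the replicate block (1.23, adjusted p = 0.147). *Ifit3* (ENSMUSG00000074896, chr19:34583531-34588731), its partner, was at 9.86, 14.4, 12.8 and 10.8 CPM in WT and 21.7, 20.00 and 20.7 CPM in SCA7, with groups well apart (log2 FC 0.80 ± 0.11, adjusted p = 3.1e-04). *Ifit2*, of the same family, was at 13.7 to 16.8 CPM in WT and 18.6 to 22.3 CPM in SCA7. It had an adjusted p under 0.05 but an FC of 1.29, under the limit (log2 FC 0.37 ± 0.09, adjusted p = 0.0084), and it passed the limit without WT replicate 2 (log2 FC 0.42), SCA7 replicate 2 (0.42) or SCA7 replicate 3 (0.41), and without the filter (0.39).

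*Bst2* (ENSMUSG00000046718, chr8:71534255-71537456) encodes tetherin, which holds budding virions at the membrane, and was at 3.84, 6.01, 3.58 and 2.94 CPM in WT and 8.97, 7.90 and 7.73 CPM in SCA7. WT replicate 2 was again the highest WT library, without reaching SCA7 (log2 FC 0.99 ± 0.20, adjusted p = 0.0049). *Rsad2* (ENSMUSG00000020641, chr12:26442746-26456452) encodes viperin, which makes a chain-terminating nucleotide, and was at 1.57, 2.56, 1.54 and 1.35 CPM in WT and 4.23, 3.97 and 3.59 CPM in SCA7. It rose 2.22-fold (log2 FC 1.15 ± 0.19, adjusted p = 9.1e-04). *Cmpk2*, a nucleotide kinase gene next to *Rsad2* on chromosome 12, was at 16.0 to 21.0 CPM in WT and 21.9 to 23.4 CPM in SCA7. Its FC of 1.22 was under the limit, at an adjusted p under 0.05 (log2 FC 0.28 ± 0.09, adjusted p = 0.039). *Rtp4* (ENSMUSG00000033355, chr16:23520291-23614222), a receptor transporter protein, was at 1.08, 2.50, 1.54 and 0.964 CPM in WT and 3.97, 3.53 and 3.13 CPM in SCA7. The groups were apart (log2 FC 1.21 ± 0.28, adjusted p = 0.011), and the call was lost without WT replicate 3 (log2 FC 1.21, adjusted p = 0.0615), with *Xist* as a covariate (1.21, adjusted p = 0.0566) and without the filter (1.23, adjusted p = 0.0579). *Samd9l* (ENSMUSG00000047735, chr6:3372257-3399572), an inhibitor of translation, was at 7.21, 7.94, 6.51 and 5.48 CPM in WT and 10.9, 9.67 and 8.47 CPM in SCA7. It rose 1.42-fold (log2 FC 0.51 ± 0.13, adjusted p = 0.011), a call lost without SCA7 replicate 1 (log2 FC 0.42, adjusted p = 0.0641).

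Of the GTPases, 3 of 4 were upregulated, with a median log2 FC of 1.02. *Gbp2* (ENSMUSG00000028270, chr3:142620602-142638008), a guanylate-binding protein that attacks the membranes around intracellular pathogens, was at 4.87, 6.96, 7.67 and 4.13 CPM in WT and 17.2, 15.6 and 15.2 CPM in SCA7. Every SCA7 library was far above WT, and the FC was 2.71 (log2 FC 1.44 ± 0.19, adjusted p = 5.8e-04). *Gbp7* (ENSMUSG00000040253, chr3:142530342-142550149) was at 5.65, 10.0, 8.14 and 6.62 CPM in WT and 13.6, 11.9 and 12.9 CPM in SCA7, without overlap (log2 FC 0.75 ± 0.16, adjusted p = 0.0069), and the call was lost with the replicate block (log2 FC 0.71, adjusted p = 0.0794). *Mx2* (ENSMUSG00000023341, chr16:97535308-97560900), a dynamin-like antiviral GTPase, was at 0.7004, 0.839, 0.806 and 0.459 CPM in WT and 1.80, 1.70 and 1.26 CPM in SCA7. The groups were apart at this low level (log2 FC 1.17 ± 0.21, adjusted p = 0.0016). *Gbp3* was at 3.09 to 9.47 CPM in WT and 9.52 to 10.3 CPM in SCA7. WT replicate 2 held the highest WT value, next to the lowest SCA7 library, and the gene was not called (log2 FC 0.86 ± 0.39, adjusted p = 0.16). Without that library it passed (log2 FC 1.28, adjusted p = 5.7e-04).

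Of the other members, 5 of 6 were upregulated, with a median log2 FC of 0.80. *Ifi44* (ENSMUSG00000028037, chr3:151730922-151749960), an interferon-induced protein, was at 0.530, 0.699, 0.694 and 0.306 CPM in WT and 1.41, 1.80 and 1.52 CPM in SCA7. It had the largest fold of the 38, 2.84 (log2 FC 1.51 ± 0.24, adjusted p = 5.6e-04). *Trim30a* (ENSMUSG00000030921, chr7:104409025-104465193), an inhibitor of NF-kappaB signalling, was at 2.15, 2.50, 2.55 and 1.33 CPM in WT and 5.70, 5.78 and 5.62 CPM in SCA7. The SCA7 libraries were almost equal and far above WT (log2 FC 1.42 ± 0.18, adjusted p = 1.3e-04). *Lgals3bp* (ENSMUSG00000033880, chr11:118392751-118402092), a secreted galectin ligand, was at 8.73, 15.6, 9.53 and 9.56 CPM in WT and 23.8, 20.5 and 19.6 CPM in SCA7. WT replicate 2 stood far from the other WT libraries (log2 FC 0.97 ± 0.20, adjusted p = 0.0088), and the call was lost without WT replicate 3 (log2 FC 0.91, adjusted p = 0.0581) and with the replicate block (0.95, adjusted p = 0.145).

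*Xaf1* (ENSMUSG00000040483, chr11:72301629-72313733), a promoter of apoptosis, was at 3.18, 5.15, 4.31 and 3.18 CPM in WT and 6.50, 6.54 and 5.37 CPM in SCA7. WT replicate 2 came close to the lowest SCA7 library (log2 FC 0.63 ± 0.16, adjusted p = 0.014), and the call was lost without SCA7 replicate 1 (log2 FC 0.59, adjusted p = 0.0602) or SCA7 replicate 2 (0.58, adjusted p = 0.0605). *Ifi35* (ENSMUSG00000010358, chr11:101448407-101458698), a partner of NMI, was at 5.28, 7.19, 6.55 and 4.96 CPM in WT and 8.53, 8.46 and 7.38 CPM in SCA7. The smallest gap between groups was again at WT replicate 2 (log2 FC 0.44 ± 0.13, adjusted p = 0.024). Its call was lost without SCA7 replicate 1, SCA7 replicate 2 or WT replicate 1, with adjusted p from 0.0747 to 0.0942, and its FC was under the limit without WT replicate 4 (log2 FC 0.35) and with the replicate block (0.36). *Ifi27*, a mitochondrial and nuclear membrane protein, was at 8.53 to 14.7 CPM in WT and 14.2 to 17.7 CPM in SCA7, so its groups overlapped. It missed the threshold in edgeR (log2 FC 0.51 ± 0.17, adjusted p = 0.058) and passed on all libraries with DESeq2 (log2 FC 0.51, adjusted p = 0.00796), with limma-voom (0.52, adjusted p = 0.0441) and with the replicate block (0.40, adjusted p = 0.00201), and in edgeR without WT replicate 2 (0.65, adjusted p = 0.00861).

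WT replicate 2 held the highest WT level in 33 of 38 members (86.8%), and in 16.5% of all genes tested. It was above the mean of the other WT libraries by a median of 0.45 on the log2 scale, a fold of 1.36, and by at least 1.3 times in 26 members, as in 5.52% of all genes tested. It remained below every SCA7 library in 36 members, and its median place was 45.8% of the way from the other WT libraries to SCA7. Of the 54 other interferon-stimulated genes tested, 29 (53.7%) had their highest WT level in the same library. Over all 54 of these genes the median of this library was 0.19 above the other WT libraries on the log2 scale. The microglial markers did not share this upper end, with 1 of 13 highest in WT replicate 2 and a median log2 difference of -0.09. Without WT replicate 2, 35 members were upregulated, where 1384 of 19779 genes tested were, and the median log2 FC of the members was 1.20. At the other end, WT replicate 4 was the lowest WT library in 23 members and WT replicate 1 in 14. WT replicate 4 was also the lowest in 10 of the 13 microglial markers, at a median log2 difference of -0.25. This order of WT libraries was noticed after the values were seen, no label sets WT replicate 2 apart, and the order was not tested. The title of WT replicate 4 carries a number far from those of all other libraries, without saying what it marks.

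**Figure D2:**
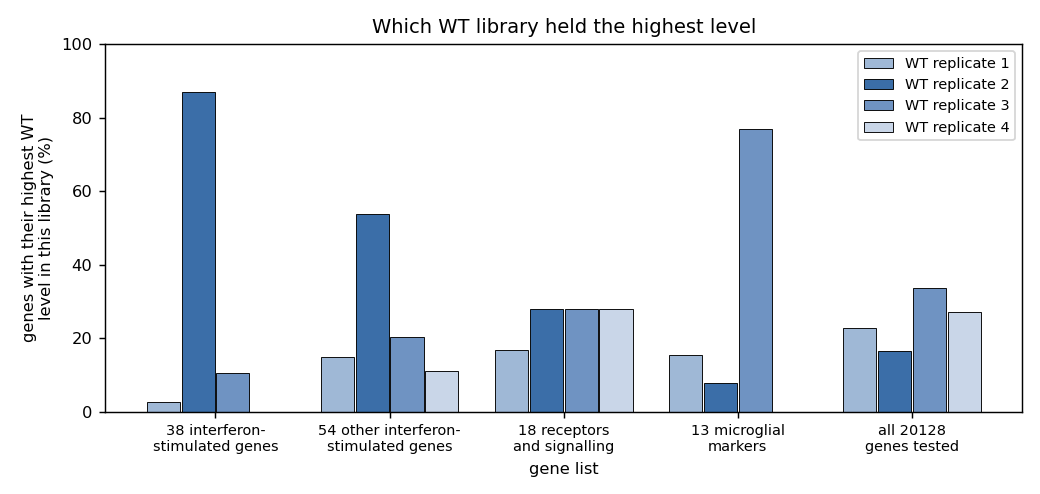
Share of genes (y axis, %) whose highest WT level fell in each of the 4 WT libraries (bars, shaded by replicate) for 5 sets of genes (x axis). WT replicate 2 takes 86.8% of the 38 interferon-stimulated genes and 53.7% of the 54 others, against 16.5% of all 20128 genes tested.

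The WT libraries therefore varied more than the SCA7 libraries in these genes. The SD of log2 CPM was larger in WT than in SCA7 in 37 of 38 members, where it was in 74.2% of all genes tested. Its median over members was 0.35 in WT and 0.12 in SCA7, and without WT replicate 2 it was 0.21 in WT. Over all genes tested the medians were 0.16 in WT and 0.09 in SCA7. Among the SCA7 libraries, replicate 1 was the highest in 24 members and replicate 3 the lowest in 24.

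To place the members in their pathway, lists of ligands, receptors and signalling genes, upstream sensors and other interferon-stimulated genes were read from the same fit. Of 21 interferon ligands none had enough counts to be tested, 14 were at 0 in all 7 libraries and the highest count was 3, for *Ifnl3*. *Ifnb1*, the gene of interferon beta, had 1 count in WT replicate 3 and 0 elsewhere, and *Ifng*, the gene of interferon gamma, had 1 count in WT replicate 3 and 1 in SCA7 replicate 2. At this depth a count of 0 allows up to 3 counts in a library, so a change in ligand RNA was not detectable here. Counting intervals and floors cover counting error only.

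Of the 18 receptor and signalling genes, 6 were upregulated and none was downregulated, with a median log2 FC of 0.20. *Ifnar2*, a chain of the type I receptor, was at 5.55, 5.51, 5.57 and 5.25 CPM in WT and 7.49, 7.01 and 7.45 CPM in SCA7, a small but steady rise (log2 FC 0.42 ± 0.08, adjusted p = 0.0028). *Irf8*, a factor of myeloid cells, was at 1.91, 1.96, 1.80 and 1.90 CPM in WT and 3.38, 3.43 and 3.20 CPM in SCA7 (log2 FC 0.82 ± 0.11, adjusted p = 2.0e-04). *Ptpn6*, a phosphatase of blood-derived cells, was at 1.47, 1.17, 1.13 and 0.857 CPM in WT and 1.82, 2.23 and 1.84 CPM in SCA7 (log2 FC 0.77 ± 0.18, adjusted p = 0.0073). These last 2 genes are typical of myeloid cells, and neither WT group overlapped SCA7.

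The largest rises on the list were in genes of the interleukin 6 type of signalling. *Socs3*, a feedback inhibitor of STAT3 that is also in the reactive glia list, was at 3.54, 3.50, 3.11 and 2.88 CPM in WT and 21.7, 20.4 and 14.3 CPM in SCA7 (log2 FC 2.53 ± 0.14, adjusted p = 2.9e-07). *Stat3* was at 49.5, 50.1, 48.4 and 54.2 CPM in WT and 189, 151 and 157 CPM in SCA7 (log2 FC 1.71 ± 0.08, adjusted p = 6.4e-08). Both were far above every WT library. The type I receptor chain *Ifnar1* had a log2 FC of 0.19 ± 0.06 (adjusted p = 0.024) and *Jak2* of 0.21 ± 0.06 (adjusted p = 0.023), in each case with an FC under the limit. Neither interferon gamma receptor chain was called, with a log2 FC of 0.07 ± 0.05 for *Ifngr1* and 0.06 ± 0.09 for *Ifngr2*. The kinases were at 0.02 ± 0.06 for *Jak1* and 0.20 ± 0.09 for *Tyk2*, and the negative regulators at 0.42 ± 0.22 for *Socs1*, -0.12 ± 0.05 for *Pias1* and 0.09 ± 0.07 for *Ptpn2*. The type III receptor chains *Ifnlr1* (0.45 ± 0.33) and *Il10rb* (0.12 ± 0.11) and the repressor *Irf2* (0.08 ± 0.10) were not called either.

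Of 22 sensors and adaptors upstream of interferon, 20 were tested, 7 were upregulated and 2 downregulated, with a median log2 FC of 0.26. The upregulated genes with at least 1 CPM were *Tlr4*, *Myd88*, *Trim25* and *Tlr3*. *Tlr4*, the receptor for lipopolysaccharide, rose from 1.16 to 1.47 CPM in WT to 2.01 to 2.37 CPM in SCA7 (log2 FC 0.72 ± 0.14, adjusted p = 0.0031). The adaptor *Myd88* went from 6.80 to 8.01 to 10.5 to 11.7 CPM (log2 FC 0.62 ± 0.09, adjusted p = 2.3e-04). *Trim25*, the ligase that activates RIG-I, went from 14.9 to 19.4 to 25.8 to 28.0 CPM (log2 FC 0.60 ± 0.09, adjusted p = 3.4e-04), and *Tlr3*, the endosomal receptor for double-stranded RNA, from 2.89 to 3.65 to 4.37 to 5.66 CPM (log2 FC 0.57 ± 0.13, adjusted p = 0.0059). Downregulated were *Rnaseh2b*, a subunit of the RNase that removes RNA from DNA (13.3 to 18.5 to 7.46 to 9.92 CPM, log2 FC -0.83 ± 0.12, adjusted p = 4.7e-04), and *Aim2*, a sensor of cytoplasmic DNA (2.15 to 2.55 to 1.53 to 1.75 CPM, log2 FC -0.55 ± 0.13, adjusted p = 0.0071). Of these sensors *Trex1* is listed at 0 in all libraries. In the annotation it lies wholly within *Atrip* on the same strand, so its reads may have been left uncounted, and the 0 is no measure of its expression.

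Of 62 other interferon-stimulated genes, 61 were matched and 54 tested, and 32 of these were upregulated and 1 downregulated, with a median log2 FC of 0.61. Where the average over the 7 libraries reached 1 CPM, the largest fold changes past the threshold were in *Trim30d*, *Ifi27l2a*, *Gbp9* and *Irgm1*. *Trim30d* and *Ifi27l2a* had a mean under 1 CPM in WT and reached this limit only through their SCA7 libraries. *Trim30d*, a close copy of *Trim30a*, was at 0.649, 0.685, 0.619 and 0.551 CPM in WT and 2.21, 2.02 and 2.26 CPM in SCA7 (log2 FC 1.79 ± 0.15, adjusted p = 3.8e-06). *Ifi27l2a*, a relative of *Ifi27*, was at 0.940, 0.979, 1.28 and 0.398 CPM in WT and 2.80, 3.01 and 2.44 CPM in SCA7 (log2 FC 1.62 ± 0.27, adjusted p = 0.0012). *Gbp9* was at 3.18, 3.36, 3.60 and 2.69 CPM in WT and 8.22, 6.94 and 8.19 CPM in SCA7 (log2 FC 1.28 ± 0.12, adjusted p = 8.4e-06), and *Irgm1*, an immunity-related GTPase, at 6.01, 8.49, 7.39 and 5.32 CPM in WT and 17.4, 15.0 and 15.8 CPM in SCA7 (log2 FC 1.24 ± 0.14, adjusted p = 6.0e-05). In all 4 the groups were apart. The gene that fell was *Tdrd7*, a component of RNA granules, at 474, 489, 440.4 and 452 CPM in WT and 210.4, 244 and 242 CPM in SCA7 (log2 FC -1.0002 ± 0.0742, adjusted p = 1.9e-06). It was the most abundant gene of the list, and the summed level of the list, 749.7 to 829 CPM in WT and 665 to 683 CPM in SCA7, ran against the direction of most of its genes.

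**Figure D3:**
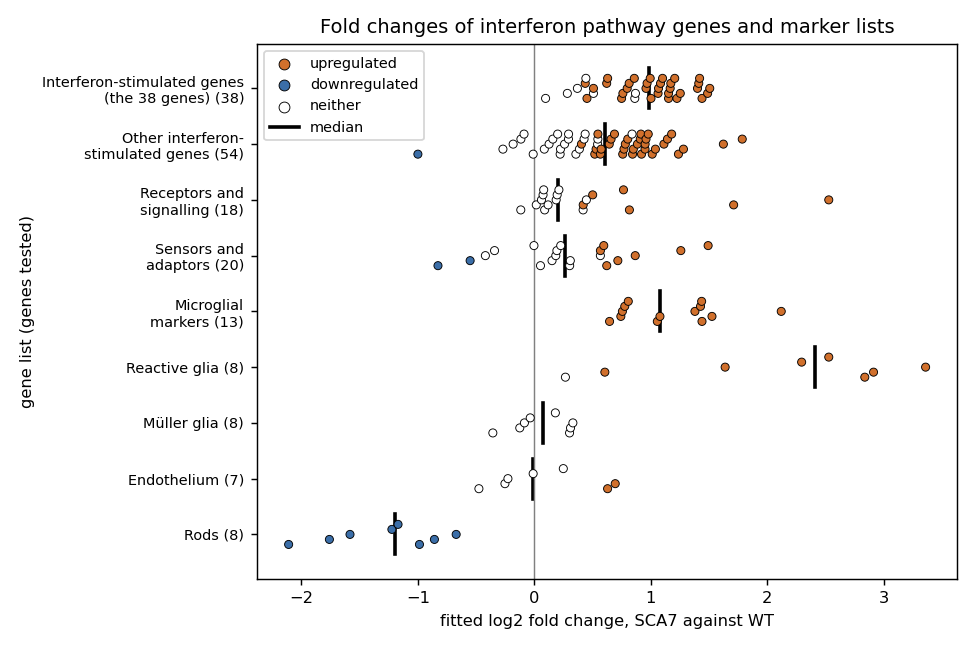
Fitted log2 fold changes, SCA7 against WT (x axis), of the genes tested in each list (y axis, number tested in parentheses); each point is 1 gene, filled where it was upregulated or downregulated, and the bar is the median of the list. The 38 members have a median of 0.98 and the 13 microglial markers of 1.08, all 8 rod markers are downregulated and no Müller glia marker is called.

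Markers of several cell types also differed between SCA7 and WT retina, some higher and some lower. All 13 microglial markers were upregulated, with a median log2 FC of 1.08, and their summed level was 84.4 to 107 CPM in WT and 184 to 207 CPM in SCA7. None of these 13 was at 0 in any library. The summed level of the 38 members was 215, 311, 252 and 211 CPM in the WT libraries and 450.3, 426 and 410.4 CPM in the SCA7 libraries, a fold of means of 1.73 beside 2.00 for the microglial markers. The ratio of the interferon-stimulated sum to the microglial sum was 2.20, 3.32, 2.35 and 2.50 in WT and 2.42, 2.06 and 2.23 in SCA7. These ratios overlapped between the genotypes, with means of 2.59 ± 0.50 (SD, n = 4) and 2.24 ± 0.18 (SD, n = 3). The part of microglia in the change of the members was not tested.

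**Figure D4:**
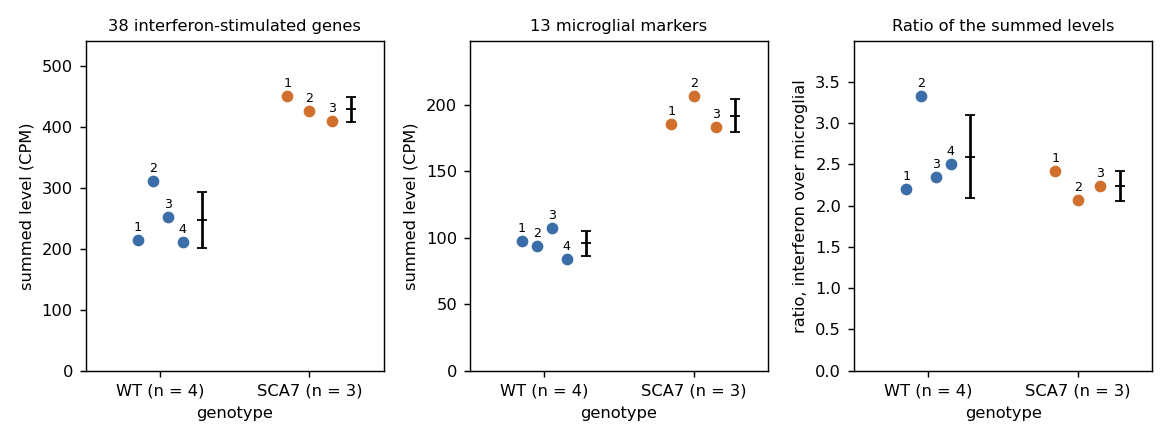
Summed level in CPM (y axis, linear from 0) of the 38 interferon-stimulated genes (left) and of the 13 microglial markers (middle), and their ratio (right), in each library by genotype (x axis); points are libraries labelled by replicate number, and the bar is the mean ± SD. Both sums are higher in all 3 SCA7 libraries, 410.4 to 450.3 and 184 to 207 CPM, whereas the ratios overlap and the highest, 3.32, is that of WT replicate 2.

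Reactive glia markers were upregulated in 7 of 8, with a median log2 FC of 2.41 and a summed level of 181 to 206 CPM in WT and 535 to 602 CPM in SCA7. Of 8 Müller glia markers none was called, and of 7 endothelial markers 2 were upregulated, *Kdr* and *Cdh5*. The endothelial markers did not move together, with 3 of 7 higher in SCA7, 2 (*Cldn5* and *Esam*) lower in every SCA7 library than in any WT library, and a median log2 FC of -0.01. Of 7 markers of monocytes and perivascular macrophages none was upregulated and 3 were downregulated, *Lyve1*, *Cd163* and *F13a1*, and their sum was 10.9 to 14.4 CPM in WT and 6.77 to 7.12 CPM in SCA7. Of 9 lymphocyte markers 2 had enough counts to be tested, with sums of 1.05 to 1.18 CPM in WT and 1.19 to 1.43 CPM in SCA7. *Cd8a* was upregulated (log2 FC 0.66 ± 0.21, adjusted p = 0.034), and the other marker tested was lower in SCA7 without being called (log2 FC -0.49). *Cd3e* and *Cd3g*, which define T cells, had no more than 4 counts in any library. Of 5 neutrophil markers 2 were tested and none was called. All 8 rod markers were downregulated, and their sum was 59820.1 to 61962 CPM in WT and 15725 to 20418 CPM in SCA7. All 6 cone markers and 3 of 4 markers of the retinal pigment epithelium were downregulated too. No rod, cone or Müller glia marker was at 0 in any library, as the tissue label retina requires. The part of these shifts in the change of the members was not tested.

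On the scale of RPK, which is a count scaled by DESeq2 size factors and divided by median transcript length in kb, the median member was at 292 RPK in WT. The 16170 protein-coding genes that reached 1 RPK in every WT library had a median of 732 RPK, and 33 of the 38 members were below it, while the median of all 23455 genes of any kind at that level was 193 RPK, under that of the members. With the union of exons as length the medians were 89.98 RPK for the members and 264 RPK for the same protein-coding genes, with 31 members below. The range ran from 2.80 RPK in *Oas2* to 2225 RPK in *Stat2*. *Ifi27* (1122 RPK), *Lgals3bp* (1094 RPK), *Irf7* (928 RPK) and *Oasl2* (901 RPK) were the other members above the median. Across the 38 members, log2 FC and WT RPK had a Spearman rho of -0.51, given as a description since the genes share the same 7 libraries and the WT level enters both measures. *Stat2*, the highest, had the smallest FC. At the low end, a gene at the WT level of *Oas2* could pass the expression filter only with a higher level in SCA7.

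Several members lie next to each other in the genome (GRCm38). *Rsad2* and *Cmpk2* are divergent, with starts 12752 bases apart on chromosome 12, and had log2 FC of 1.15 and 0.28. *Dtx3l* and *Parp9* overlap on opposite strands of chromosome 16, with starts 681 bases apart, and had log2 FC of 1.00 and 0.96. *Ifit2* (chr19:34550694-34576419) and *Ifit3* are 7111 bases apart, with log2 FC of 0.37 and 0.80. On chromosome 3, *Gbp7* and *Gbp3* (chr3:142560026-142573209) are 9876 bases apart and *Gbp3* and *Gbp2* 47392 bases, with log2 FC of 0.75 for *Gbp7*, 0.86 for *Gbp3* and 1.44 for *Gbp2*. Neighbours thus had close values in some pairs and not in others, and these differences between genes were not tested.

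Some values depend on how reads were assigned to genes. *Ifit3* and *Ifit3b*, *Oas1a* and *Oas1g*, and *Trim30a* and *Trim30d* are near-identical copies, so the split of reads between them is uncertain. *Irf9* overlaps *Rnf31* on the same strand, which had up to 2576 counts, and *Irf7* overlaps *Phrf1* on the opposite strand, which had up to 7662 counts. The strand option of the counting is not given in the sources used here, so reads of *Irf7* and *Phrf1*, and of *Parp9* and *Dtx3l*, may not be fully separated.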

How the data were processed

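Total RNA, depleted of ribosomal RNA, was sequenced from retina of 4 WT and 3 SCA7 mice. The authors mapped the reads to mm10 with TopHat2 2.0.14 and Bowtie2 2.1.0 and counted them per gene with HTSeq 0.6.1 (versions from the submitters' processing notes), and the deposited table holds raw counts without normalization. The HTSeq mode and strand option are not given in the sources used here. Counts took their groups from the sample titles, and gene names, positions and transcript lengths came from the GENCODE annotation of GRCm38. No pair of libraries agreed within sampling noise.

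Genes passing filterByExpr were scaled by TMM and tested with glmQLFit (robust) and glmQLFTest in edgeR 4.0.16 (R 4.3.3, limma 3.58.1, DESeq2 1.42.0), with no covariate and Benjamini-Hochberg adjustment over all genes tested. The labels say nothing of litters, so p-values measure the spread between these mice. Every member was reported, with values per library where called. The receptor and signalling genes are given, except the single values of 1 gene, which are not reported here, and up to 4 called genes with the largest fold change and at least 1 CPM from each other list. Members and lists were chosen with earlier results of these data known, so no list was tested. The alternatives were DESeq2 size factors, the DESeq2 Wald test, limma-voom, no filter beyond 1 count, at least 10 counts in every library, a replicate block, *Xist* as a covariate (0.5 counts added), an adjusted p under 0.01, no FC limit, an FC above 2, and each library left out in turn. RPK was also computed with TMM factors and with the union of exons as length. The fits were tested on simulated data, where the edgeR fits without a block and limma-voom met the limit set on the share of false calls in every draw, while DESeq2 and the edgeR fit with the block met it over all draws together but not in each. The ChIP-seq data were not used here.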

Additional observations from a re-analysis of the deposited data

Results flagged for a closer look

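In *Lgals3bp*, WT replicate 2 stood apart from the other WT libraries by Dixon's test for an outlying value, at 15.6 CPM where the others lay between 8.73 and 9.56 CPM. This was 1 of the 38 members (2.63%), while 5.13% of all genes tested had such a library in WT, and chance alone gives about 1 in 20. Its log2 FC was 0.97 with all libraries and 1.20 without WT replicate 2.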

How the results depend on the processing

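The direction of every member was the same in all 15 fits, where 0 of 567 values were below 0. Of 431 alternative values for the 31 upregulated members, 392 kept the call and 39 lost it, and of 98 for the other 7 members, 86 stayed uncalled and 12 passed. In every fit that tested them 19 members were upregulated, and in none *Cmpk2* and *Stat2*. The number upregulated was 31 with DESeq2 size factors, 32 with DESeq2, 33 with limma-voom and without an FC limit, 29 without the filter, 28 of 35 tested with at least 10 counts in every library, 27 with *Xist* as a covariate, 21 at an adjusted p under 0.01 and 18 at an FC above 2. Of all 20128 genes, edgeR called 1504, or 1525 with DESeq2 size factors and 1616 with *Xist* as a covariate. DESeq2 called 1489 of them and limma-voom 1527. Without the filter 1693 of 34726 genes were upregulated, and 1375 of 18135 with at least 10 counts in every library. No such count is given here for an adjusted p under 0.01 or without an FC limit. Leaving out each library in turn gave 25 to 35, with a median log2 FC of 0.89 to 1.20. Among all genes tested, these fits called 1215 (without SCA7 replicate 1) to 1559 (without WT replicate 3) upregulated. With DESeq2 size factors, DESeq2, limma-voom, the replicate block and each library left out, upregulated genes numbered 26 to 32 among the other interferon-stimulated genes, 6 to 8 among the sensors and 6 each time among receptors and signalling genes. These lists were not counted under the other settings.

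With the replicate number as a block, 27 members were upregulated, as were 1629 of 20128 genes, and the median member log2 FC was 0.91. The numbers were not taken to pair the mice, since the labels name no shared litter or day, the deviations of libraries with the same number correlated at 0.0053, 0.20 and 0.089, and libraries 1 and 3 of SCA7 correlated best with another number. The titles also give close numbers to libraries of the same replicate number without saying what they mark, so a pairing cannot be settled from them. Under the block the calls of *Ifit1* (log2 FC 1.25 without the block and 1.23 with it), *Oasl2* (1.07 and 1.04), *Gbp7* (0.75 and 0.71) and *Lgals3bp* (0.97 and 0.95) were lost at nearly the same fold, and *Ifi35* (0.44 and 0.36) fell under the FC limit. That of *Ifi27* was gained at a smaller fold (0.51 and 0.40).

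The median level of the members in WT was 89.98 RPK when the union of exons was the length and 262 RPK with TMM factors. Depth limits *Oas2*, *Oas1a* and *Zbp1*, which had between 3 and 23 counts in WT.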

Other observations

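Among the genes upstream of interferon, *Irf3*, the factor that starts transcription of type I interferon, was at 49.5, 49.4, 43.0 and 46.7 CPM in WT and 34.3, 35.2 and 36.1 CPM in SCA7 (log2 FC -0.42 ± 0.06, adjusted p = 4.8e-04 in edgeR). *Samhd1*, which depletes nucleotides, was at 22.4, 22.4, 23.8 and 20.04 CPM in WT and 18.1, 17.4 and 17.0 CPM in SCA7 (log2 FC -0.34 ± 0.07, adjusted p = 0.0038). In both genes every SCA7 library was below every WT library, and both had an FC above the limit of 0.7, so neither was called. They were chosen after their values were seen.

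Of the sensors under 1 CPM in WT, *Tlr7*, which detects viral single-stranded RNA in endosomes, was at 0.307, 0.377, 0.281 and 0.275 CPM in WT and 0.845, 1.05 and 0.748 CPM in SCA7 (log2 FC 1.49 ± 0.21, adjusted p = 3.0e-04). *Tmem173*, which encodes the adaptor STING, was at 0.495, 0.350, 0.694 and 0.398 CPM in WT and 0.894, 0.785 and 0.933 CPM in SCA7 (log2 FC 0.87 ± 0.23, adjusted p = 0.015), and *Ifi204*, a DNA sensor, at 0.461, 0.405, 0.375 and 0.474 CPM in WT and 1.02, 1.22 and 0.855 CPM in SCA7 (log2 FC 1.26 ± 0.19, adjusted p = 5.2e-04). The groups were apart in these 3 genes, which were also chosen after their values were seen.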
